A study of Mus musculus with 2 samples.

Results

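The 9 genes described here encode surface proteins of red cells that carry blood group antigens in humans: Rhd, Rhag, Kel, Xk, Icam4, Ermap, Gypc, Aqp1 and Ache. They were chosen by name, with earlier results of these data known. Every probe set whose only gene symbol in the platform annotation was 1 of these names was taken. This gave 10 probe sets of 9 genes, of 45037 probe sets that were not array controls and 18193 genes with a probe set of their own. Xk had 2 probe sets and the other genes 1 each. No probe set carried a member among several symbols.

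Signals came from short-oligonucleotide arrays of total RNA from G1E cells, a mouse erythroid progenitor line without functional GATA-1. In them ER-GATA-1(V205G) was expressed. This protein joins a hormone-binding part of the estrogen receptor to GATA-1 with a mutation that impairs contact with its cofactor FOG-1. One group was cells given 1 µM estradiol for 24 h, and the other was the same cells prior to treatment, each with 1 array. Both carried the fusion, and the study asked which transcripts differ once a GATA-1 defective in FOG-1 binding is activated. Without an untreated array at 24 h or estradiol-treated cells lacking the fusion, effects of the mutant, of estradiol itself and of time in culture cannot be told apart. With 1 array a group there is no replicate check, and no p-value or error between cultures can be given. In bulk RNA, more cells expressing a gene and more RNA per cell cannot be told apart.

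The red cell surface is built late in erythroid differentiation as integral membrane proteins are joined into complexes. The Rh proteins, with their glycosylated relative RhAG and the adhesion molecule ICAM-4, sit in a complex with band 3, CD47 and ankyrin. The Kell glycoprotein is linked to XK by a disulfide bond, and glycophorin C ties the membrane to the skeleton through protein 4.1 and MPP1. GATA-1 and the Kruppel-like factor KLF1 are the main activators of red cell membrane genes. Blood group names below come from human serology.

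A signal is a linear intensity in arbitrary units. The floor for dim signals was the 50th percentile over both arrays, or 95.2, and a gene at or above it on both arrays was called measured. The log2 ratio is that of estradiol over untreated, with a threshold of 2-fold. The size a ratio is read against is the pooled SD between probe sets of the same gene, 0.25 on the log2 scale over 12514 probe sets of 4586 genes. It covers probe noise and transcript forms, not differences between cultures. Of the 9 members, 8 were measured and Aqp1 was below the floor on both arrays.

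Of the 8 measured members, 3 were at least 2-fold higher after estradiol (Ache, Rhd and Icam4), against 2.04% of all 10240 measured genes, and 0 were at least 2-fold lower, against 1.10%. Because the members were chosen with earlier results of these data known, these shares describe them and are not a test. Kel lay just short of 2-fold and Gypc was higher by a smaller margin, while Rhag, Ermap and Xk differed by less than 2 SD between probe sets. The member ratios ran from -0.15 to 1.89 with a median of 0.74, while the median of all measured genes was 0.00 and their central range from the 5th to the 95th percentile was -0.58 to 0.70. Ache, Rhd, Icam4 and Kel lay above that range. At 1.5-fold 4 of 8 were higher, with Kel added, against 7.11% of all measured genes, and 0 were lower, against 4.85%. At 3-fold 1 of 8, Ache, was higher, against 0.479%, and 0 were lower, against 0.205%.

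**Figure D1:**
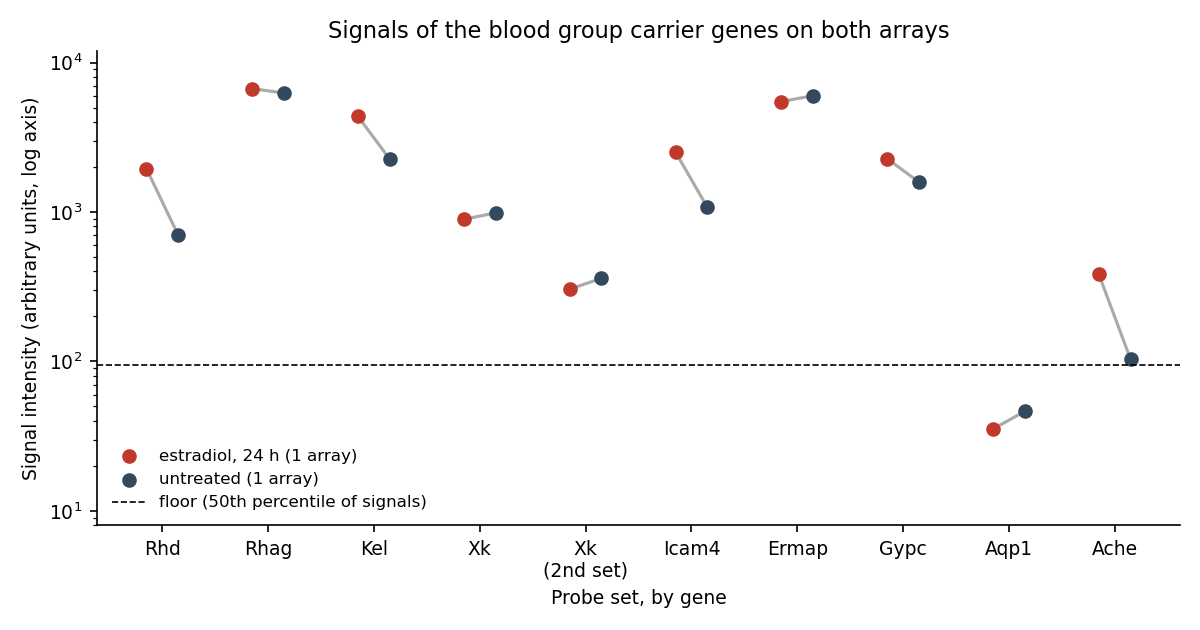
Signal intensity on a log axis for each of the 10 member probe sets, with the estradiol array left of the untreated array and the floor as a dashed line. Rhd, Kel, Icam4, Gypc and Ache are higher with estradiol, and Aqp1 lies below the floor on both arrays. Brightness of different probe sets is not comparable.

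Among the Rh complex genes, Rhd and Icam4 were higher after estradiol and Rhag was not. Rhd encodes the Rh protein of mouse red cells. Its signal was 1953 in estradiol-treated cells and 701 in untreated cells, 2.79-fold higher (log2 ratio 1.48). Icam4 encodes the Landsteiner-Wiener glycoprotein, an adhesion molecule that binds integrins. It had a signal of 2520 with estradiol and 1078 without, 2.34-fold higher (log2 ratio 1.23). Rhag encodes the ammonia-transporting glycoprotein that Rh proteins need to reach the surface. It read 6695 with estradiol and 6257 without, a log2 ratio of 0.10. That is inside the 2 SD limit of 0.44 for genes in the highest tertile of signal.

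The ratios of these partners therefore differed from each other. Rhd exceeded Rhag by 1.38 on the log2 scale, against 2 SD of 0.70 for a difference between these 2 ratios. Icam4 exceeded Rhag by 1.13, against 0.63. Rhd and Icam4 differed by 0.25, inside the limit of 0.70. Of 10240 measured genes, Rhd had rank 64 from the highest ratio, Icam4 rank 122 and Rhag rank 3859. The stretches of 100 bases before the annotated start of the 3 genes are shown because each holds a motif of GATA factors, in capitals, whether or not the gene's signal differed. They are from RefSeq on GRCm38.p6 and are written on the gene's own strand.
Rhd, chr4:134864436-134864535, + strand: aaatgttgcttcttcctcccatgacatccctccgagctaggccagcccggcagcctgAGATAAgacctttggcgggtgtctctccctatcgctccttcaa
Icam4, chr9:21029332-21029431, + strand: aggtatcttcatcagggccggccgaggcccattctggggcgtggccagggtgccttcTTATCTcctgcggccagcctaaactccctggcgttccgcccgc
Rhag, chr17:40811049-40811148, + strand: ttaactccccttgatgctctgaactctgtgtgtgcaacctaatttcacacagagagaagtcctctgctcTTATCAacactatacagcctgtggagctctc

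Other proteins of the same complex are named here after their values were seen. Slc4a1, the band 3 anion exchanger that carries Diego antigens, read 769 with estradiol and 422 without (log2 ratio 0.86), and 1.21 on its other measured probe set. Ank1, the ankyrin that links band 3 to spectrin, read 1947 and 1146 (0.76), with 0.76 to 1.15 on its other probe sets. Cd47, the integrin-associated protein, read 5410 in treated and 7184 in untreated cells (-0.41), inside the limit of 0.44. Its other measured probe sets lay between -0.44 and -0.39. Rhag exceeded Cd47 by 0.51, inside the limit of 0.63 for their difference. Epb42, the gene of protein 4.2, was below the floor on both arrays, at 20.2 with estradiol and 92.3 without.

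Of the Kell and Kx pair, Kel was higher and Xk was not. Kel encodes a zinc endopeptidase. It had a signal of 4358 in estradiol-treated cells and 2255 in untreated cells, 1.93-fold higher (log2 ratio 0.95), beyond the limit of 0.44 for its tertile. Xk encodes the multi-pass membrane protein that carries the Kx antigen and acts as a lipid scramblase. Its brighter probe set read 893 with estradiol and 988 without (log2 ratio -0.15), and its other probe set read 304 and 360 (-0.24). Both Xk ratios had the same sign and lay inside the limit of 0.54 for the middle tertile. Kel exceeded Xk by 1.10 on the log2 scale, against 2 SD of 0.70. The promoter of Kel held 2 GATA motifs within the 100 bases before its start, in capitals.
Kel, chr6:41704326-41704425, - strand: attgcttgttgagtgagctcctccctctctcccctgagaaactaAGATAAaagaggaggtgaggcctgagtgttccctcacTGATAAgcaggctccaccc

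Gypc and Ermap differed less. Gypc encodes glycophorin C, the carrier of Gerbich antigens. It read 2275 with estradiol and 1586 without, 1.43-fold higher (log2 ratio 0.52), just past the limit of 0.44. Its skeleton partner Mpp1, the palmitoylated protein p55, read 5483 and 3392 (log2 ratio 0.69), so the 2 ratios differed by 0.17, inside 2 SD of 0.63. Ermap encodes an immunoglobulin-family protein of erythroid membranes that carries Scianna antigens. It read 5478 in treated and 6006 in untreated cells (log2 ratio -0.13), inside the limit of 0.44. Its promoter is shown because it too holds a GATA motif, in capitals, beside a ratio near 0.
Ermap, chr4:119189996-119190095, - strand: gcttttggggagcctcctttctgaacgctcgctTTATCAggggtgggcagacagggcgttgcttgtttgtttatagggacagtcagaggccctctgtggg

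Ache had the largest ratio of the members, and its untreated signal was close to the floor. Ache encodes acetylcholinesterase, which on human red cells is held by a lipid anchor and carries Yt (Cartwright) antigens. Its signal was 383 with estradiol and 103 without, 3.70-fold higher (log2 ratio 1.89, rank 22 of 10240). The 2 SD limit in the lowest tertile of signal was 0.64. The untreated signal stood at 109% of the floor. When the floor was raised to the 70th percentile (a signal of 319) the untreated array lay below it and the ratio became a bound of at least 0.27 on the log2 scale. Aqp1, the water channel that carries Colton antigens, read 35.3 with estradiol and 46.3 without, and no ratio was formed.

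**Figure D2:**
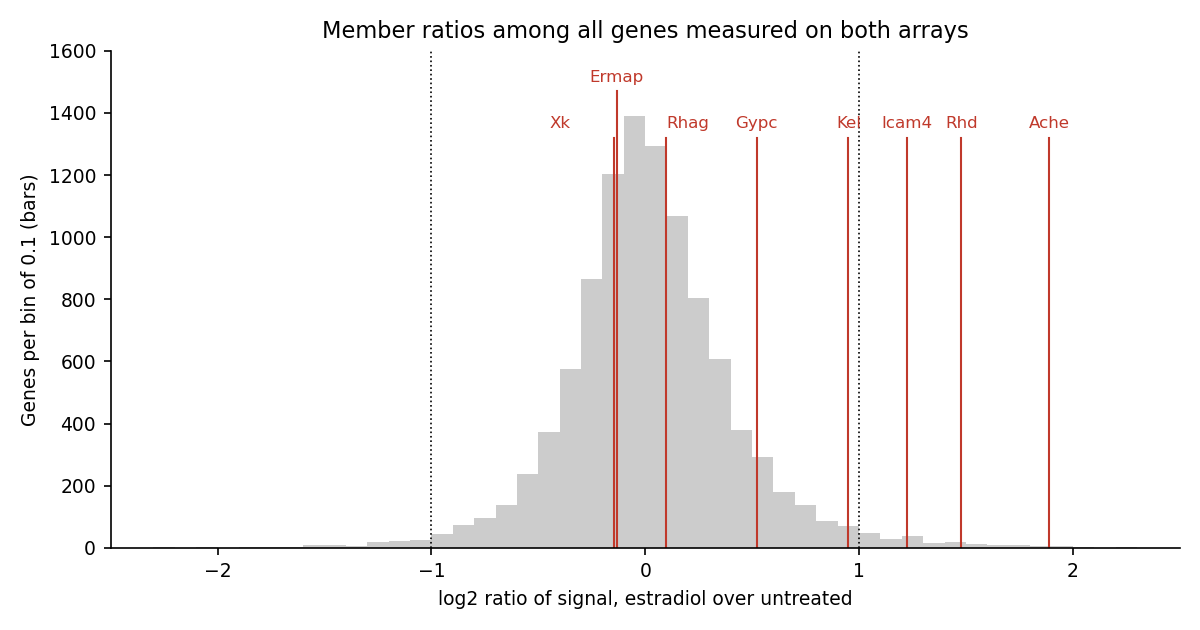
Number of genes per bin of 0.1 of the log2 ratio (grey bars, 10240 measured genes, those beyond ±2.5 not drawn), with the 8 measured members as red lines and 2-fold as dotted lines. Xk, Ermap and Rhag stand in the centre of the distribution, Gypc at its shoulder, and Kel, Icam4, Rhd and Ache in its upper tail.

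The promoters of the members were searched on both strands for the letters AGATAA or AGATAG, or the same with a leading T (TGATAA or else TGATAG), in the 250 bases before the annotated start. A GATA motif of these letters was present in 5 of the 8 members with a promoter in the table: Rhd, Icam4, Kel, Rhag and Ermap. The letters were found in 26.5% of all 32851 promoters of the same length and in 17.4% of the 10668 promoters of genes measured on both arrays. More than 1 motif, as in Kel, was present in 2.72% of the promoters of measured genes. All 6 motifs of the members lay within 67 bases of the start, and how close those of other promoters lie was not computed. Of the genes with a motif, Rhd, Icam4 and Kel were higher after estradiol, and Rhag and Ermap differed by less than 2 SD. Ache, Xk and Aqp1 held none of these letters in that window. Gypc had no entry.

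The letters CCNCNCCC, a form of the motif bound by Kruppel-like factors, were present in Icam4, Ache, Xk and Aqp1. They were found in 45.9% of all promoters and in 63.1% of promoters of measured genes. Matches overlapped within runs of G and C, as in Xk, which had 13 overlapping or separate matches, and in Ache, which had 6. More than 1 match was present in 40.4% of promoters of measured genes. Icam4 was the only one of the 8 promoters with both kinds of motif, and the share of all promoters with both was not computed. A match of letters describes the sequence and does not show binding.

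**Figure D3:**
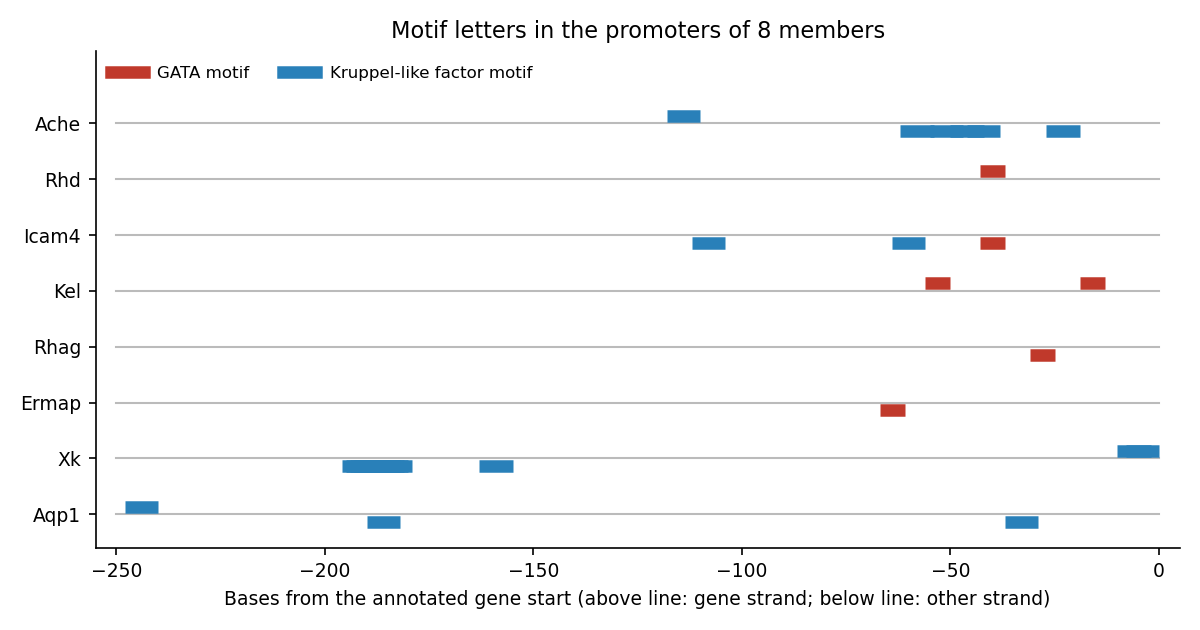
Position of GATA motifs (red) and Kruppel-like factor motifs (blue) in the 250 bases before the annotated start of 8 members, in bases from the start, with the gene's own strand above each line and the other strand below. The 6 GATA motifs stand within 67 bases of the start in Rhd, Icam4, Kel, Rhag and Ermap.

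Other carriers of blood group antigens had ratios on both sides of 0. Of 28 such genes 26 had a probe set of their own and 20 were measured. One, Smim1, was at least 2-fold higher and 0 were lower, against 2.04% and 1.10% of all measured genes, and 11 ratios lay above 0 and 9 below. The median was 0.17. Smim1, which encodes the small membrane protein of the Vel antigen, had a signal of 983 in treated and 394 in untreated cells (2.49-fold, log2 ratio 1.32). Next by size were Slc4a1 and Aqp3, a water channel that carries the Gill antigen, at 188 with estradiol and 109 without (0.79). The untreated Aqp3 signal was close to the floor, and its other probe sets were below the floor on both arrays. Among 8 glycosyltransferase genes that build carbohydrate antigens, only Gbgt1 was measured, with a ratio of 0.18. Gcnt2, the enzyme of the I antigen, read 221 with estradiol and 92.6, below the floor, without, a bound of at least 2.32-fold. Its next probe set read 85.6, below the floor, with estradiol and 103 without, a bound in the other direction from signals near the floor. The remaining Gcnt2 probe sets were below the floor on both arrays.

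Genes of the membrane skeleton and its anchoring complexes had a median close to that of the members. Of 16 genes, 13 had a probe set of their own and 10 were measured, 2 at least 2-fold higher and 0 lower, against 2.04% and 1.10% of all measured genes, with a median of 0.70. Add2, the beta subunit of adducin, read 3249 with estradiol and 1132 without (log2 ratio 1.52), with 0.65 to 1.60 on its other probe sets. Sptb, erythroid beta spectrin, read 4767 and 1726 (1.47), but 0.26 on its other probe set. Dmtn, dematin, read 622 with estradiol and 79.0, below the floor, without, a bound of at least 6.54-fold against a ratio of 0.16 on another probe set.

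Paralogs of the members were mostly dim. Of 30 genes 27 had a probe set of their own, 9 were measured and 13 were below the floor on both arrays, among them the non-erythroid Rh glycoprotein genes Rhbg and Rhcg. Aqp2, the water channel of the kidney collecting duct, read 270 with estradiol and 131 without (log2 ratio 1.05), the 1 paralog of 9 past 2-fold, against 2.04% of all measured genes. Aqp3 had 0.79 and Xkr8, a scramblase gene of the Xk family, had -0.75 (103 with estradiol and 172 without). The Xkr8 signal with estradiol was close to the floor. All other probe sets of Aqp3 and Xkr8 were below the floor on both arrays. Btn1a1, a butyrophilin gene related to Ermap, read 203 with estradiol and 28.6, below the floor, without, a bound of at least 2.13-fold. Its other probe sets were below the floor on both arrays. The median of the 9 measured paralogs was 0.29.

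**Figure D4:**
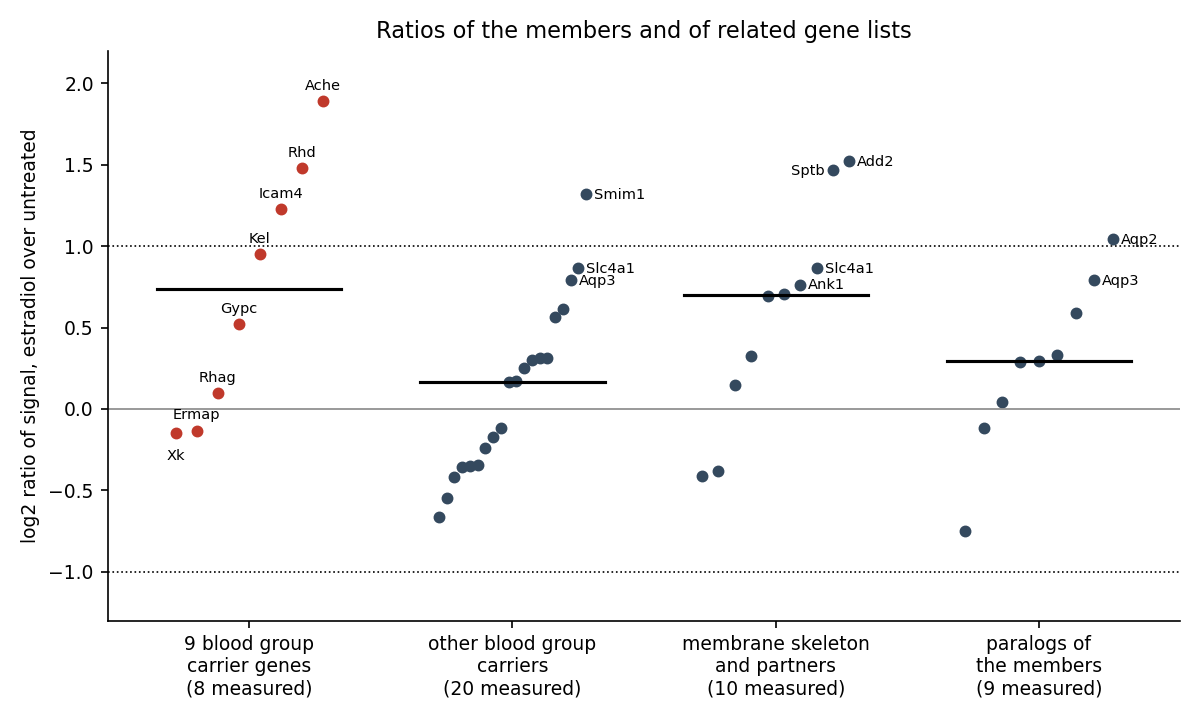
log2 ratio of estradiol over untreated for each measured gene of 4 lists (points, brightest probe set per gene), with the list median as a bar and 2-fold as dotted lines. The medians are 0.74 for the members, 0.17 for other carriers, 0.70 for the membrane skeleton and partners, and 0.29 for the paralogs. Lists share some genes.

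The nearest patterns to Rhd were found by the distance between log2 signals over the 2 arrays, which says no more than that both signals were alike. They were Lysmd3 at a distance of 0.06 (1935 with estradiol and 728 without), Slc46a3 at 0.12 (2120 and 688) and Abca3 at 0.13 (2113 and 736).

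The cells carried erythroid transcripts on both arrays, alongside the mast cell and basophil transcripts described below. Klf1 read 6997 with estradiol and 4554 without, Epor 2295 and 2516, and Alas2, the erythroid enzyme of heme synthesis, 3430 and 283. Hemgn, the erythroid nuclear protein hemogen, went the other way, with 754 with estradiol and 1297 without (log2 ratio -0.78, beyond the limit of 0.54). The Gata1 probe set read 1191 with estradiol and 1264 without, and whether it reads the fusion transcript was not tested. Of 9 erythroid markers with a probe set of their own 8 were measured, 5 with ratios above 0 and 3 below. At least 2-fold higher were 2, Alas2 and Sptb, and 0 were lower, against 2.04% and 1.10% of all measured genes. The summed signal of all 9 was 22189 with estradiol and 13510 without, and bright probe sets weigh most in such sums.

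Markers of mast cells and basophils went in opposite directions. Of 10 with a probe set of their own 5 were measured, 1 higher and 3 lower by 2-fold or more, against 2.04% and 1.10% of all measured genes. The tryptase gene Tpsab1 read 3418 with estradiol and 140 without (log2 ratio 4.61). The granzyme gene Gzmb read 495 with estradiol and 4260 without (-3.11), the carboxypeptidase gene Cpa3 1146 and 6616 (-2.53), and Ms4a2, the beta chain of the IgE receptor, 791 and 2093 (-1.40). The other measured marker, Cma1, read 210 with estradiol and 184 without (0.19). Hdc read 152 with estradiol and 3.80, below the floor, without, a bound of at least 1.59-fold higher. Tpsb2 read 100 with estradiol and 47.1, below the floor, without, a bound of at least 1.05-fold higher. Fcer1a read 47.3, below the floor, with estradiol and 144 without, a bound of at least 1.52-fold lower. The summed signal of the 10 markers was 6385 with estradiol and 13510 without, and without Tpsab1 it was 2967 and 13370. None of the measured markers of the remaining cell types passed 2-fold. The largest ratios were those of Gp1bb (0.18), Pf4 (0.18) and Itga2b (0.15) for megakaryocytes, Csf1r (0.22) and Ngp (-0.08) for neutrophils and monocytes, Pax5 (0.56) and Ighm (0.18) for lymphocytes, and Col1a2 (0.55) and Kdr (0.26) for endothelial and stromal cells. The summed signals with and without estradiol were 1346 and 1239 for 8 megakaryocyte markers, 986 and 845 for 9 neutrophil and monocyte markers, 1045 and 1071 for 8 lymphoid markers, and 696 and 596 for 8 endothelial and stromal markers. No marker was listed at 0. Their part in the member ratios was not tested.

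The member ratios changed little with the processing, apart from Ache. Several of the alternatives could not move them. Another floor leaves the ratio of a gene that is still measured as it was. Another choice of probe set can change only Xk, the only member with 2 probe sets. The deposited signals already had nearly equal trimmed means, so leaving them unscaled could change little. Over 9 alternatives of scaling, floor and probe set, Rhd ranged from 1.367 to 1.496, Icam4 from 1.11 to 1.25, Kel from 0.84 to 1.00 without reaching 2-fold, and Gypc from 0.41 to 0.55. Where Ache was measured, its ratio lay between 1.74 and 1.89. Xk and Ermap stayed below 0 in all 9. Rhag was below 0 in 1, at -0.01, when both arrays were scaled to one median, which moved the median of all measured genes to -0.11.

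**Figure D5:**
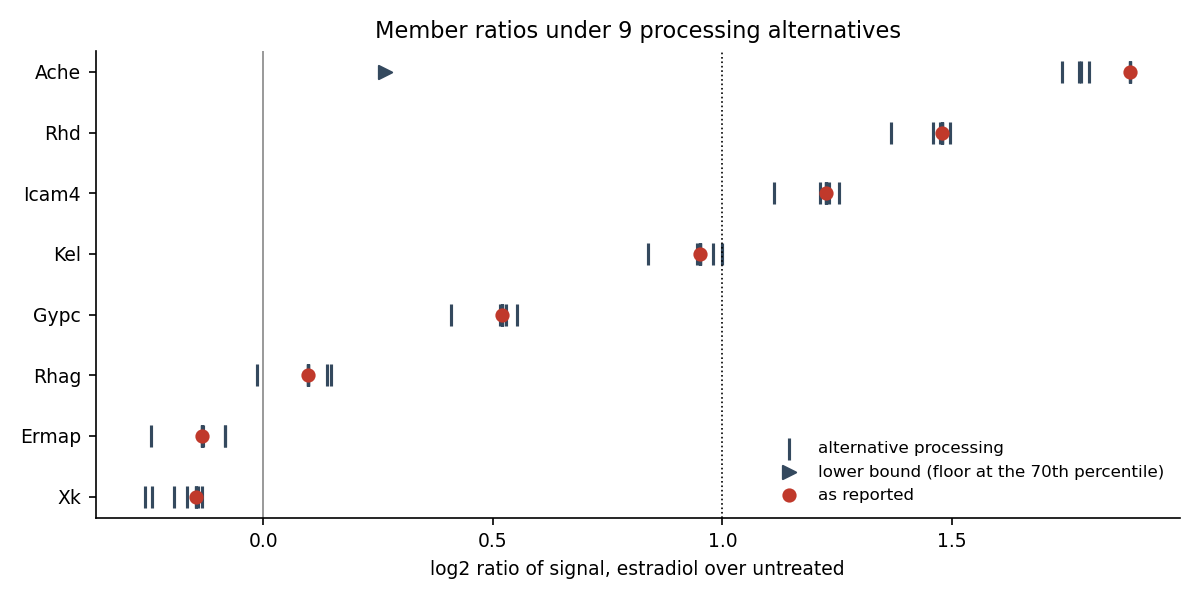
log2 ratio of estradiol over untreated for the 8 measured members, as reported (red points) and under 9 alternatives of processing (dark ticks), with 2-fold as a dotted line. Ache has only a lower bound of 0.27 (arrowhead) with a floor at the 70th percentile, and each of the other members keeps its side of the 2-fold line.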

How the data were processed

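The 2 arrays were grouped by the labels' source names. The deposited values are linear signal intensities, 1 per probe set, made with Affymetrix GCOS per the submitters' processing notes; no version or setting was found in the labels. The 2% trimmed mean was 500.0 on both arrays and signals ran from 0.1 to 18099.6. Of the arrays' data only this table was used. Gene symbols are those of the platform annotation: 34945 probe sets had 1 symbol, 932 several and 9160 none.

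Both arrays were rescaled to one trimmed mean over probe sets that were not controls. A gene took its brightest probe set. A signal below the floor on 1 array was set to the floor, which makes the ratio a bound. Tertiles of mean signal had pooled SDs of 0.32, 0.27 and 0.22 from the lowest to the highest. The number of arrays limits the precision. Named genes are all members, list genes past 2-fold (bounds included), the 3 largest ratios of a list where fewer passed, the 3 genes nearest to Rhd, and Gata1, Klf1, Epor and Alas2. Hemgn, Ank1, Cd47, Epb42, Mpp1, Rhbg, Rhcg, Cma1, Hdc, Tpsb2, Fcer1a and the chromosomal neighbours were chosen after their values were seen. The members and lists were chosen with earlier results of these data known. Promoters came from the RefSeq table for GRCm38.p6. A planned comparison of protein sequences was not made. Steps were tested on simulated data. Python 3.11.15, numpy 2.4.6, pandas 2.3.3, scipy 1.17.1, statsmodels 0.14.6 and matplotlib 3.10.9 were used.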

Additional observations from a re-analysis of the deposited data

How the results depend on the processing

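The alternatives were unscaled deposited signals, one median for both arrays, loess with a span of 0.3, quantile normalization, a lower floor (30th percentile), a higher floor (70th percentile), no floor but 16 added to signals, the median or the least bright of a gene's measured probe sets, and thresholds of 1.5-fold and 3-fold. Of 125 values recomputed for the members and lists, 115 moved by less than the SD between probe sets or, for counts, by no more than 1.5 times. This count includes values that could not move, such as ratios of members with 1 probe set under another choice of probe set. With the higher floor Ache had a bound of 0.27, and 2 of 7 measured members were at least 2-fold higher, against 1.83% of 7122 measured genes. At 3-fold 1 of 8 members, Ache, was higher, 0 of 20 other carriers and 0 of 10 membrane anchors, against 0.479% of all measured genes. At 1.5-fold 4 of 20 other carriers and 6 of 10 membrane anchors were higher, against 7.11%. Lower by 1.5-fold were 1 other carrier and 0 membrane anchors, against 4.85%. The count of other carriers past 2-fold was 2 of 24 with the lower floor and 2 of 26 with no floor. It was 2 of 20 with either other choice of probe set, where the share of all genes was not computed. The median of the members ranged from 0.52 to 0.78. Among all measured genes, 439 of 13461 (3.26%) were at least 2-fold higher with the lower floor, 130 of 7122 with the higher floor and 679 of 18193 (3.73%) with none. Aqp1 had a ratio of -0.39 with the lower floor and -0.28 with none. No paired analysis was possible because each group held 1 array.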

Other observations

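The protein-coding genes next to each member on its chromosome, in the RefSeq gene order of GRCm38.p6, were looked up after the member values were seen. For each side the nearest gene with a probe set of its own was taken, 18 in all. Of these 8 were measured. At least 2-fold higher was 1 and lower were 0, against 2.04% and 1.10% of all measured genes. The higher gene was Ufsp1, which encodes a protease of the ubiquitin-like modifier UFM1 and lies directly beside Ache. Its signal was 671 with estradiol and 250 without, a log2 ratio of 1.42, beside 1.89 for Ache. Whether the probe sets of these adjacent genes read separate transcripts was not tested. The other 7 measured neighbours had ratios from -0.20 to 0.40. Maco1 and Rsrp1, on the 2 sides of Rhd, had ratios of -0.03 and -0.19. Between Rhd and Rsrp1 lay 1 gene without a probe set of its own. Icam1, which encodes an adhesion molecule of the same family and lies beside Icam4, read 106 with estradiol and 103 without (0.05). Icam5, on the other side of Icam4, was below the floor on both arrays at 80.1 with estradiol and 37.8 without. Llcfc1 and Pip, taken on the 2 sides of Kel, were below the floor on both arrays. Pip lay 143 kb from Kel, with 1 gene without a probe set of its own between them.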
